A study of Mus musculus with 22 samples.

Results

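The genes described here were the acetylcholine receptors of the cortex and acetylcholinesterase, 9 genes taken by name out of the 37786 in the count table. The rule uses the names alone, though the set was drawn up with earlier results of these data known. They were the muscarinic receptors Chrm1, Chrm2, Chrm3 and Chrm4, the nicotinic receptor subunits Chrna4, Chrna5, Chrna7 and Chrnb2, and the enzyme Ache. All 9 passed the count minimum used for testing.

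Acetylcholine reaches the anterior cingulate cortex (ACC) mainly along axons of basal forebrain neurons, and it acts there on 2 unrelated receptor families. Muscarinic receptors are G protein-coupled: M1 and M3 act through Gq, phospholipase C and the closing of KCNQ potassium channels, and M2 and M4 act through Gi and Go, which lower cyclic AMP and open Kir3 potassium channels. Nicotinic receptors are cation channels of 5 subunits, and acetylcholinesterase ends the signal by splitting acetylcholine.

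RNA was sequenced from bulk ACC tissue of 22 adult male wildtype C57BL/6J mice, 8 weeks old when the experiments began. All of them carried channelrhodopsin 2 fused to EYFP in the basolateral amygdala (BLA), delivered on both sides by an AAV5 vector under the CaMKIIa promoter, and an optic fibre on 1 side of the ACC. The 12 control mice had the light switched off (ctrl), and the 10 stimulated mice received 9 sessions of blue light on BLA terminals in the ACC (stim). Tissue was taken from both hemispheres, while the fibre was on 1 side. The comparison asks which ACC transcripts differ after the BLA input has been driven repeatedly.

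Libraries held 24563116 to 36542883 counts in controls and 23090483 to 43668462 in stimulated mice. The library numbers in the labels form a pair of runs, 1 to 11 (6 controls, 4 stimulated) and 12 to 23 (6 controls, 6 stimulated), which the labels do not name as batches, and a table of batches was not used here. Gene levels differed widely between the runs, so the run was a term of the main fit and within-run values are given beside the pooled ones. Mitochondrial genes took 1.63% to 4.81% of counts in numbers 1 to 11 and 0.98% to 1.90% in numbers 12 to 23. The 4 excitatory neuron markers (Slc17a7, Camk2a, Neurod6, Nrgn) summed to between 2987 and 7630.1 CPM (counts scaled to the size of each library) over the mice, and each of the 4 was counted in every mouse. Markers of cholinergic neurons (Chat, Slc18a3, Slc5a7) summed to 1.11 to 5.46 CPM.

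Per length, the means of the 9 transcripts kept 1 order in both groups and in both runs, with near ties in numbers 1 to 11. Levels were set side by side as CPM per kilobase of exon, over all exonic bases of each gene in GENCODE M21. Chrm1, the main muscarinic receptor of cortical pyramidal neurons, stood highest at 33.2 ± 7.25 CPM per kb (SD, n = 22) and exceeded Ache in 22 of 22 mice. Ache followed at 16.8 ± 2.76 and Chrm4 at 10.9 ± 3.99 CPM per kb. Ache was above Chrm4 in 19 of 22 mice, all 10 of numbers 1 to 11 and 9 of 12 of numbers 12 to 23.

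In the middle of the order stood Chrna4 with 8.35 ± 2.14 and Chrm3 with 6.71 ± 1.99 CPM per kb. Chrna4 was below Chrm4 in 18 mice and above Chrm3 in 18 mice. Chrm3 was above the next gene, Chrnb2, in all 22. The 4 lowest were Chrnb2 at 3.57 ± 1.14, Chrm2 at 2.91 ± 0.76, Chrna7 at 2.29 ± 0.77 and Chrna5 at 1.58 ± 0.54 CPM per kb. The ranges of neighbouring genes overlapped at every step of the order, and the steps among these last 4 held in only 16 to 18 of 22 mice. In numbers 1 to 11, Chrm4 was above Chrna4 in 6 of 10 mice (means 7.09 and 7.08 CPM per kb). Chrnb2 was there above Chrm2 in 6 of 10 (2.55 and 2.46) and Chrna7 above Chrna5 in 5 of 10 (1.56 and 1.47). The Chrm4 model is a single exon of 1440 coding bases, so reads from its untranslated regions were not counted. With the length of the longest transcript in place of all exonic bases, Chrm3 came before Chrna4 and Chrna7 before Chrm2. The levels were then 21.1 CPM per kb for Ache, 9.67 for Chrm3 and 3.66 for Chrna7. The levels, and the shares and ratio that follow, thus depend on the length used.

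**Figure D1:**
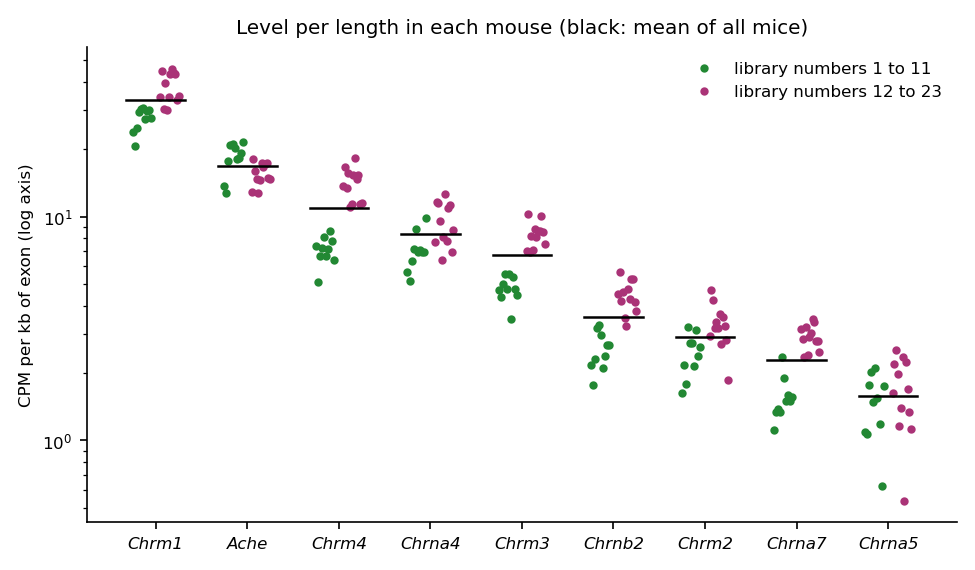
Level per length of the 9 genes in each of 22 mice, in CPM per kb of exon on a log axis, ordered by the mean over all mice (black line). Green points are library numbers 1 to 11 and purple points 12 to 23. Chrm1 has the highest mean (33.2 CPM per kb) and Chrna5 the lowest (1.58), and neighbours in the order overlap.

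Within the muscarinic family, Chrm1 made up 62.3% ± 3.49 (SD, n = 22) of the summed per-length level of the 4 receptors. Chrm4 made up 19.7% ± 2.96, Chrm3 12.4% ± 1.55 and Chrm2 5.51% ± 1.11. The 2 Gq-coupled receptors thus carried most of the muscarinic transcript in both groups, with Chrm1 at 55.2% to 67.2% in controls and 59.3% to 68.1% in stimulated mice. Within the 4 nicotinic subunits, Chrna4 made up 53.1% ± 4.39, Chrnb2 22.4% ± 3.05, Chrna7 14.4% ± 3.13 and Chrna5 10.1% ± 2.89. Chrna4 and Chrnb2 encode the partner subunits of the most common heteromeric nicotinic receptor of the brain. Per length, Chrna4 was 2.39-fold above Chrnb2, and the ratio ran from 1.67 to 3.69 over the mice, with no mouse in which Chrnb2 was higher.

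None of the 9 genes passed the test between stimulated and control mice, and in each of them the groups overlapped. With edgeR's quasi-likelihood test and Benjamini-Hochberg adjustment, 0 of 9 had an adjusted p under 0.05, against 0 of 17524 genes tested (0%). At an unadjusted p under 0.05 the count was again 0 of 9, beside 11.5% of all genes (6.05% higher and 5.45% lower in stimulated mice). DESeq2 and limma voom called 33 and 1 genes at an adjusted p under 0.05, none of them among the 9. Without the run in the fit, 0 of 9 and 3.61% of all genes had an unadjusted p under 0.05. Estimates were above 0 for 6 of the 9 and below 0 for 3, beside 9222 above and 8302 below over all genes. In bulk tissue, fewer cells of a type and less RNA per cell cannot be told apart.

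Chrm1 (ENSMUSG00000032773, GRCm38 chr19:8663789-8683587, + strand) ran from 134 to 289 CPM in controls, with a median of 196, and from 177 to 297 CPM in stimulated mice, with a median of 220. The groups overlapped over most of their range, and only stimulated mouse 6 lay above every control. Its log2 fold change was 0.16 ± 0.08 (SE, 95% interval -0.01 to 0.32, edgeR p = 0.065, adjusted p = 0.462). This was the smallest p of the 9 genes. Its estimate was 0.12 within numbers 1 to 11 and 0.16 within numbers 12 to 23. Of the 4 excitatory neuron markers, 3 had estimates above 0 (Slc17a7 0.16, Nrgn 0.17, Neurod6 0.08) and Camk2a had -0.02. Slc17a7, a vesicular glutamate transporter, was the 1 of these with an unadjusted edgeR p under 0.05 (p = 0.018, adjusted p = 0.363), and the part of these markers in the Chrm1 estimate was not tested. Without controls 9 and 11, which had the highest oligodendrocyte marker levels, the Chrm1 estimate was 0.10 (edgeR p = 0.216). With the mitochondrial share in the fit it was 0.09 (edgeR p = 0.198).

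Chrm3 (ENSMUSG00000046159, chr13:9875486-10360847, - strand), the other Gq-coupled receptor, ran from 27.5 to 63.9 CPM in controls (median 39.0) and from 21.9 to 62.9 CPM in stimulated mice (median 48.8). Both groups split into a low and a high set of mice that followed the run and not the treatment. The log2 fold change was -0.01 ± 0.08 (SE, 95% interval -0.18 to 0.16, edgeR adjusted p = 0.979), and its sign turned with the setting, being 0.10 without the run in the fit, -0.13 within numbers 1 to 11 and 0.06 within numbers 12 to 23.

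Chrm2 (ENSMUSG00000045613, chr6:36388084-36528414, + strand), known as the autoreceptor of cholinergic terminals, ran from 9.90 to 28.4 CPM in controls (median 18.5) and from 11.3 to 22.3 CPM in stimulated mice (median 16.7). No stimulated mouse lay outside the range of all controls. Within numbers 12 to 23, however, 3 of 6 stimulated mice were below all 6 controls. The pooled log2 fold change was -0.10 ± 0.13 (SE, 95% interval -0.37 to 0.16, edgeR adjusted p = 0.783), and it was -0.22 with the mitochondrial share in the fit (edgeR p = 0.061, adjusted p = 0.492). It was 0.13 within numbers 1 to 11 (95% interval -0.27 to 0.52) and -0.31 within numbers 12 to 23 (95% interval -0.64 to 0.01, edgeR adjusted p = 0.429). The difference between these estimates, tested as an interaction, was -0.39 on the log2 scale (95% interval -0.92 to 0.13, edgeR p = 0.134, adjusted p = 0.727). It was the smallest interaction p of the 9, of which 0 were under 0.05 beside 8.01% of all genes.

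Chrm4 (ENSMUSG00000040495, chr2:91927249-91928688, + strand), the second Gi-coupled receptor, ran from 7.32 to 24.1 CPM in controls (median 13.8) and from 9.18 to 26.4 CPM in stimulated mice (median 16.5). As for Chrm3, the lower and upper values of both groups were separated by the run. Between groups it had a log2 fold change of 0.10 ± 0.10 (SE, 95% interval -0.10 to 0.29, edgeR adjusted p = 0.710), and it was 0.13 within numbers 1 to 11 and 0.05 within numbers 12 to 23. Chrm4 is abundant in the striatum, and the 8 markers of striatal projection neurons summed to 161 to 218 CPM in controls and 167 to 256 CPM in stimulated mice, with estimates above 0 for 7 of 8 and 0 of 8 at an unadjusted edgeR p under 0.05. Their part in the Chrm4 estimate was not tested.

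**Figure D2:**
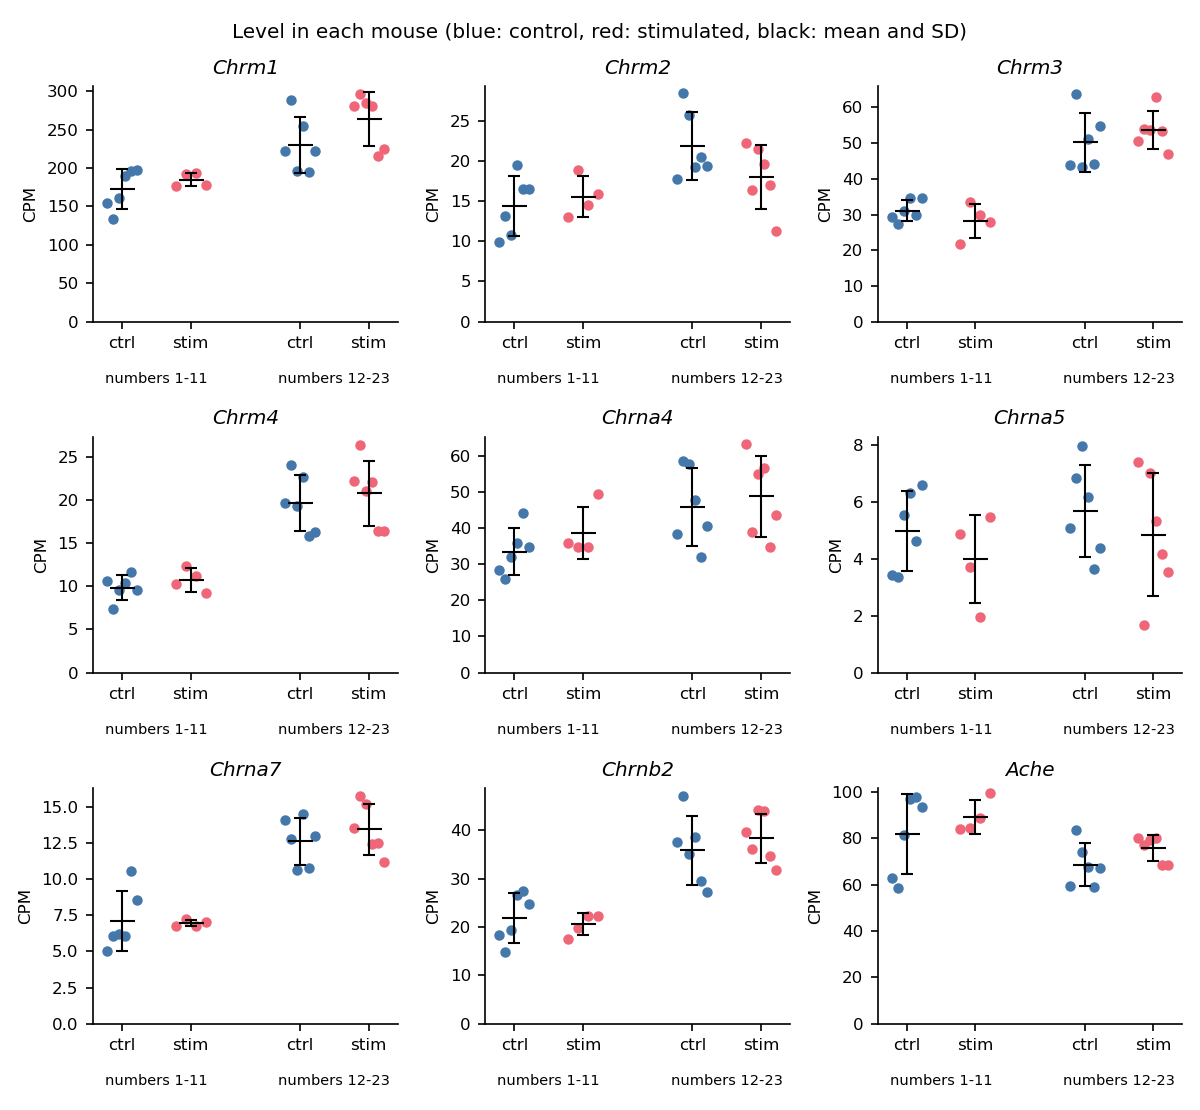
Level of each of the 9 genes in every mouse, in CPM, with controls in blue and stimulated mice in red, split by the run of library numbers, and the mean and SD of each set in black. In each panel the control and stimulated points of a run overlap, while Chrm3, Chrm4 and Chrna7 are higher in every mouse of numbers 12 to 23 than in any of numbers 1 to 11.

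Among the nicotinic subunits, Chrna4 (ENSMUSG00000027577, chr2:181018380-181043546, - strand) ran from 25.8 to 58.6 CPM in controls (median 37.2) and from 34.7 to 63.3 CPM in stimulated mice (median 41.4). The lowest 3 mice were controls 1, 2 and 3, and controls 1 and 2 also had the largest mitochondrial shares of all mice, 4.41% and 4.81%. The log2 fold change was 0.14 ± 0.12 (SE, 95% interval -0.10 to 0.39, edgeR adjusted p = 0.651). It was 0.22 within numbers 1 to 11, 0.05 within numbers 12 to 23 and 0.05 with the mitochondrial share in the fit.

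Chrnb2 (ENSMUSG00000027950, chr3:89746195-89764632, - strand), the partner of Chrna4, ran from 14.9 to 47.1 CPM in controls (median 27.4) and from 17.6 to 44.1 CPM in stimulated mice (median 33.2). Every stimulated mouse lay within the range of the controls. Its difference on the log2 scale was 0.01 ± 0.11 (SE, 95% interval -0.20 to 0.23, edgeR adjusted p = 0.972), with estimates of -0.08 and 0.07 within the runs. Of its 8380 exonic bases, 1365 are shared with Adar on the other strand, and reads from those bases cannot be assigned to either gene without strand. Smaller overlaps of the same kind were 329 bases in Chrm1 (Gm22820), 142 in Chrm2 (9330158H04Rik) and 98 in Ache (Gm42456).

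Chrna5 (ENSMUSG00000035594, chr9:54980880-55007779, + strand), an accessory subunit that raises the conductance of Chrna4-Chrnb2 receptors and is known from layer 6 pyramidal neurons, ran from 3.34 to 7.96 CPM in controls (median 5.31) and from 1.68 to 7.38 CPM in stimulated mice (median 4.51). Stimulated mice 3 and 6 were the lowest of all, at 1.97 and 1.68 CPM. The log2 fold change was the farthest from 0 of the 9, -0.27 ± 0.21 (SE, 95% interval -0.70 to 0.17, edgeR p = 0.215, adjusted p = 0.632). It was -0.30 within numbers 1 to 11 and -0.26 within numbers 12 to 23, and limma voom with sample quality weights gave -0.46 (limma p = 0.052). Chrna5 was also the least deeply counted, with 44 to 298 counts in a mouse, and its interval was the widest of the 9. The 6 layer 6 markers summed to 107 to 279 CPM in controls and 101 to 236 CPM in stimulated mice, 3 of the 6 with estimates below 0 and 1, Tle4, at an unadjusted edgeR p of 0.049 (log2 fold change -0.21, adjusted p = 0.431). Their part in the Chrna5 estimate was not tested.

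Chrna7 (ENSMUSG00000030525, chr7:63098692-63212569, - strand), which forms the calcium-permeable homomeric channel, ran from 5.02 to 14.5 CPM in controls (median 10.6) and from 6.77 to 15.8 CPM in stimulated mice (median 11.8). Stimulated mice 6 and 7 were above all controls. Stimulated mice differed from controls by a log2 fold change of 0.04 ± 0.11 (SE, 95% interval -0.18 to 0.26, edgeR adjusted p = 0.914), and it was -0.01 within numbers 1 to 11 and 0.06 within numbers 12 to 23.

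Ache (ENSMUSG00000023328, chr5:137287519-137294466, + strand) ran from 58.6 to 97.6 CPM in controls (median 70.9) and from 68.3 to 99.6 CPM in stimulated mice (median 80.1). All 6 stimulated mice of numbers 12 to 23 were above the median of their 6 controls, as were 2 of 4 in numbers 1 to 11, and the ranges overlapped in both. The log2 fold change was 0.13 ± 0.08 (SE, 95% interval -0.04 to 0.31, edgeR p = 0.121, adjusted p = 0.534), close to equal within the runs at 0.14 and 0.11. Controls 1 and 2, with the largest mitochondrial shares, had the lowest Ache level of numbers 1 to 11 (62.9 and 58.6 CPM). With the mitochondrial share in the fit the estimate was 0.04 (edgeR p = 0.401).

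**Figure D3:**
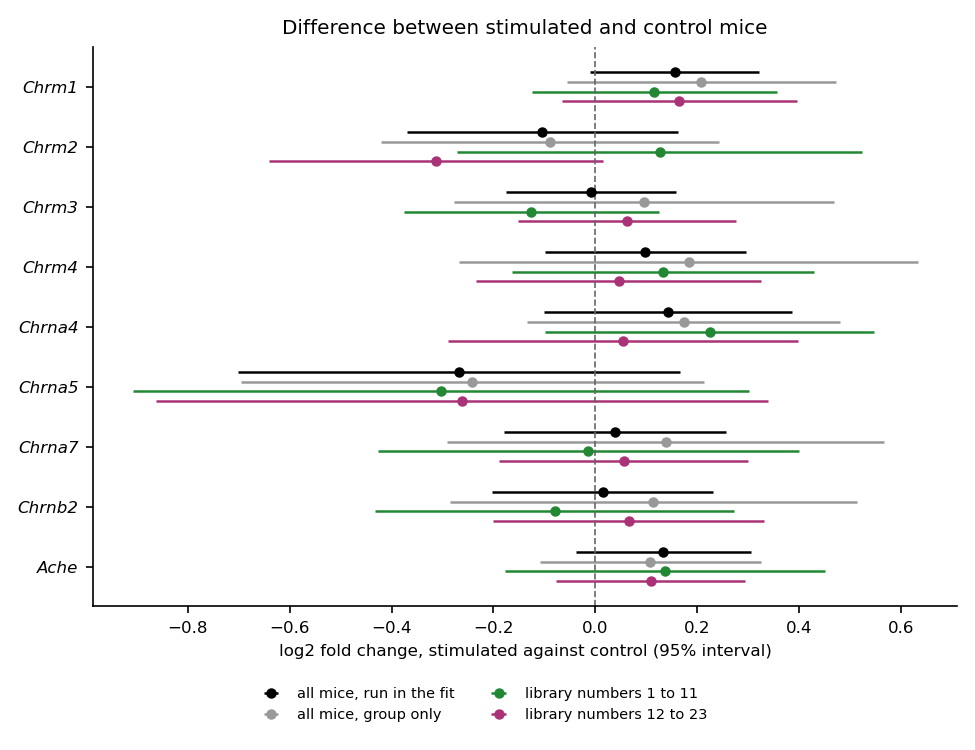
Log2 fold change of each gene, stimulated against control, with its 95% interval, from the fit with the run (black), without it (grey) and within library numbers 1 to 11 (green) and 12 to 23 (purple). Every black interval includes 0, and they run from -0.70 at the lower end of Chrna5 to 0.39 at the upper end of Chrna4.

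The 6 oligodendrocyte markers (Mbp, Mag, Mog, Mobp, Cnp, Mal) were the one marker list with estimates below 0 and an unadjusted p under 0.05 for all its genes, from -0.50 for Cnp to -0.91 for Mobp (edgeR adjusted p of 0.333 for Mobp), where 5.45% of all genes were lower at that p. Their sum was 2424 to 15007 CPM in controls and 1701 to 4791 CPM in stimulated mice, and the control and stimulated medians were 2776 and 2174 CPM for Mbp, 803 and 552 for Mobp, 38.3 and 31.9 for Mog, 84.2 and 73.5 for Mal, 246 and 246 for Cnp, and 84.1 and 86.2 for Mag. Without controls 9 and 11, none of the 6 had an unadjusted edgeR p under 0.05, with Mobp at -0.33 (p = 0.080) and Mag at -0.0034. These controls had the highest levels of these same markers, so smaller estimates follow from leaving them out and are no independent check. The estimates of the 9 genes without controls 9 and 11 ran from -0.26 for Chrna5 to 0.15 for Chrna4. In that fit 0 of 9 had an unadjusted edgeR p under 0.05, beside 1430 of the 17524 genes tested.

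The run of library numbers separated the mice more widely than treatment, with an estimate larger in size for 8 of the 9 genes (all but Chrna5). In the run term of the same edgeR fit, 7 of 9 were higher in numbers 12 to 23 at an adjusted p under 0.05, where 33.7% of all genes were higher and 34.3% lower, and 1 of 9, Ache, was lower. All 4 muscarinic receptors were among the 7. The log2 difference was 0.97 ± 0.10 for Chrm4 (SE, edgeR adjusted p = 2.13e-09), 0.89 ± 0.11 for Chrna7, 0.80 ± 0.11 for Chrnb2 and 0.79 ± 0.08 for Chrm3. It was smaller for Chrm1 (0.46 ± 0.08), Chrm2 (0.43 ± 0.13) and Chrna4 (0.40 ± 0.12). Chrna5 differed by 0.23 ± 0.21 (SE, edgeR adjusted p = 0.338). Ache moved the other way, at -0.25 ± 0.08 (SE, edgeR adjusted p = 0.010).

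For 3 of the 9 the runs did not overlap. The highest Chrm3 level of numbers 1 to 11 was 34.5 CPM and the lowest of numbers 12 to 23 was 43.4 CPM. For Chrm4 these were 12.3 and 15.9 CPM, and for Chrna7 10.60 and 10.62 CPM, a gap far smaller than the spread within either run. Over all genes, 13.9% were higher in every mouse of numbers 12 to 23 than in any of numbers 1 to 11. The summed excitatory neuron markers separated the runs too, with 2987 to 3794 CPM in numbers 1 to 11 and 4624 to 7630.1 CPM in numbers 12 to 23, as did the 3 markers of oligodendrocyte progenitors (53.6 to 67.0 and 145 to 229 CPM). The excitatory sum was carried by Camk2a and Slc17a7 (2.33-fold and 1.95-fold higher in numbers 12 to 23), while Nrgn was lower (-0.54 on the log2 scale, edgeR adjusted p = 2.92e-05) and Neurod6 had -0.28 (edgeR adjusted p = 0.059). The part of cell makeup, dissection or library preparation in the run difference was not tested. Within the muscarinic family Chrm1 took 63.4% to 68.1% of the per-length sum in numbers 1 to 11 and 55.2% to 62.5% in numbers 12 to 23, without overlap.

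After group and run were removed, many but not all pairs of the 9 genes were correlated across mice. Correlations were computed on log2 CPM centred within each group of each run, and p-values came from permutation tests that exchanged mice within those sets (100000 resamples, two-sided, adjusted over the 36 pairs by Benjamini-Hochberg). All 36 pairs had a positive Pearson r, with a median of 0.51, where 49.9% of the pairs of all tested genes were positive and their median was 0. By both Pearson and Spearman correlation, 17 pairs had an adjusted permutation p under 0.05. These values share a library for both genes of a pair, so they describe mice and libraries together, and mitochondrial share and cell makeup were not removed.

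By Pearson correlation the highest pair was Chrnb2 with Ache, at r = 0.82 (permutation p = 0.00016, adjusted 0.0019) and rho = 0.82 (permutation p = 0.00018, adjusted 0.0024), and r was 0.82 without the 2 mice farthest from the median of Chrnb2. By Spearman correlation it was Chrna4 with Ache, at rho = 0.83 (permutation p = 3e-05, adjusted 0.0011) and r = 0.78 (permutation p = 1e-05, the smallest these resamples can give, adjusted 0.00036), with r = 0.77 without the 2 farthest. Chrm1 with Chrm4, a Gq-coupled and a Gi-coupled receptor, had r = 0.81 (permutation p = 8e-05, adjusted 0.0014) and rho = 0.76 (permutation p = 0.0004, adjusted 0.0029), with r = 0.74 without the 2 farthest mice. Chrna4 with its accessory subunit Chrna5 had r = 0.71 (permutation p = 0.00069, adjusted 0.0031) and rho = 0.77 (permutation p = 0.0002, adjusted 0.0024), with r = 0.73 without the 2 farthest. Chrna4 with Chrnb2 had r = 0.72 (permutation p = 0.00053, adjusted 0.0029) and rho = 0.72 (permutation p = 0.00075, adjusted 0.0042), with r = 0.71 without the 2 farthest. The lowest values were those of Chrna5 with Chrm3, Chrm4 and Chrna7, with r between 0.04 and 0.10 in these 3 pairs. For each pair, the 2 mice left out were those farthest from the median of its first-named gene. Leaving them out moved some pairs either way. Without them Chrm4 with Chrna5 was at r = -0.07, Chrna7 with Ache went from 0.51 to 0.27 and Chrm4 with Ache from 0.51 to 0.33, while Chrna5 with Ache went from 0.50 to 0.72, Chrna5 with Chrnb2 from 0.46 to 0.64 and Chrna5 with Chrna7 from 0.09 to 0.29.

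**Figure D4:**
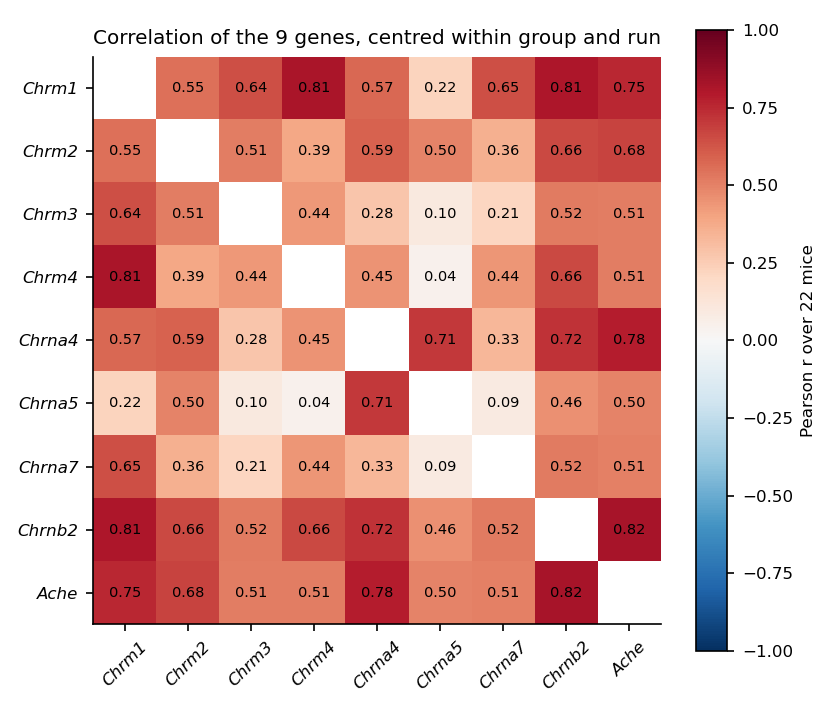
Pearson r between the levels of each pair of the 9 genes over 22 mice, as log2 CPM centred within each group of each run, with colour and printed value both giving r. All 36 values are positive with every mouse included, from 0.04 (Chrm4 with Chrna5) to 0.82 (Chrnb2 with Ache).

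Over all tested genes with a symbol, the patterns most like each gene were found by the same centred correlation over 22 mice, given as a description with no test. Chrm1 was most like Ak5 (r = 0.96), Doc2a (0.96) and Ets2 (0.95). Chrnb2 was most like Actn1 (0.97), Acsl1 (0.95) and Ripor1 (0.93), and Ache like Dync1i1 (0.95), Pja1 (0.95) and Cyb561 (0.95). Chrna5 was most like Syt6 (0.93), which is one of the layer 6 markers listed for this work, followed by Sulf1 (0.87) and Pth2r (0.87).

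The best correlate of each of the other 5 lay at r = 0.91 or lower. Chrna4 was nearest to Rprm (0.90), Arhgap25 (0.89) and Blcap (0.88), and Chrm4 to Bhlhe40 (0.91), Pip4k2c (0.87) and Spata2l (0.86). Chrm2 was nearest to Champ1 (0.89), Brd1 (0.89) and Kcnc2 (0.88). Chrm3 was nearest to Zbtb18 (0.85), Gucy1a1 (0.84) and Lingo2 (0.83), and Chrna7 to Emc1 (0.86), Map6 (0.82) and Galns (0.81). With centring within runs alone, 15 of these 27 genes were again among the leading 3. The correlates of Chrm2 were all replaced, while those of Chrm4 were all kept.

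The rest of the pathway was read in the same treatment comparison. Of 54 further genes on 5 lists, 44 passed the count minimum, 29 with estimates above 0 and 15 below. With edgeR 0 of 44 had an adjusted p under 0.05, and 3 higher and 2 lower had an unadjusted p under 0.05, where 6.05% and 5.45% of all genes did. The median log2 fold change of the 44 was 0.02, beside 0.01 over all genes. Without the run in the fit, 1 of the 44 had an unadjusted p under 0.05, and it was on the list of other receptor subunits. Slc44a1, Ly6h, Rgs2 and Adcy1, described below, were not under 0.05 in that fit.

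Of 13 other receptor subunits, only Chrna1, Chrna2, Chrna3, Chrnb1 and Chrnb3 passed the count minimum, with means of 0.55 to 1.38 CPM. Chrm5, the remaining muscarinic receptor, had no count in 8 of 22 mice and at most 13 counts in any. Chrna2, known from a class of deep-layer interneurons, ran from 0.04 to 1.07 CPM in controls (median 0.35) and from 0.22 to 1.21 CPM in stimulated mice (median 0.71), and the ranges overlapped. Its log2 fold change was 0.95 ± 0.38 (SE, edgeR p = 0.020, adjusted p = 0.363), 1.92 within numbers 1 to 11 and 0.20 within numbers 12 to 23, on 1 to 49 counts in a mouse.

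Of 7 genes for synthesis, vesicle loading, choline uptake and cholinesterase anchoring, 2 had estimates above 0 and 5 below. The cell bodies of most cholinergic neurons lie outside the cortex. Chat, the enzyme that makes acetylcholine, averaged 0.65 CPM, its vesicular transporter Slc18a3 averaged 0.67 CPM and the choline transporter Slc5a7 averaged 1.40 CPM. The 3 had log2 fold changes of -0.24 ± 0.35, -0.03 ± 0.33 and 0.01 ± 0.30 (SE). Slc44a1, a choline transporter of many cells, ran from 61.9 to 253 CPM in controls (median 83.2) and from 59.9 to 111 CPM in stimulated mice (median 90.1), so that the stimulated median was the higher. Its log2 fold change was -0.32 ± 0.14 (SE, edgeR p = 0.030, adjusted p = 0.392), and it was -0.05 (edgeR p = 0.404) without controls 9 and 11, the mice with the highest oligodendrocyte marker levels.

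Of 10 chaperones and Ly6 proteins that fold or tune nicotinic receptors, 8 were tested, with 6 estimates above 0 and 2 below. Ly6h, which holds back the delivery of nicotinic receptors to the cell surface, had a log2 fold change of 0.21 ± 0.08 (SE, edgeR p = 0.015, adjusted p = 0.354). Lynx1, a brake on nicotinic receptors, had -0.11 ± 0.09 (SE, edgeR adjusted p = 0.663).

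Of 13 genes of Gq coupling, 9 had estimates above 0 and 4 below, and Rgs2, which speeds the shut-off of Gq, had 0.24 ± 0.08 (SE, edgeR p = 0.0072, adjusted p = 0.333). The Rgs2 estimate was 0.08 within numbers 1 to 11 and 0.34 within numbers 12 to 23. Of 11 genes of Gi coupling, 8 had estimates above 0 and 3 below, and Adcy1, the calcium-stimulated adenylyl cyclase, had -0.17 ± 0.08 (SE, edgeR p = 0.037, adjusted p = 0.412).

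**Figure D5:**
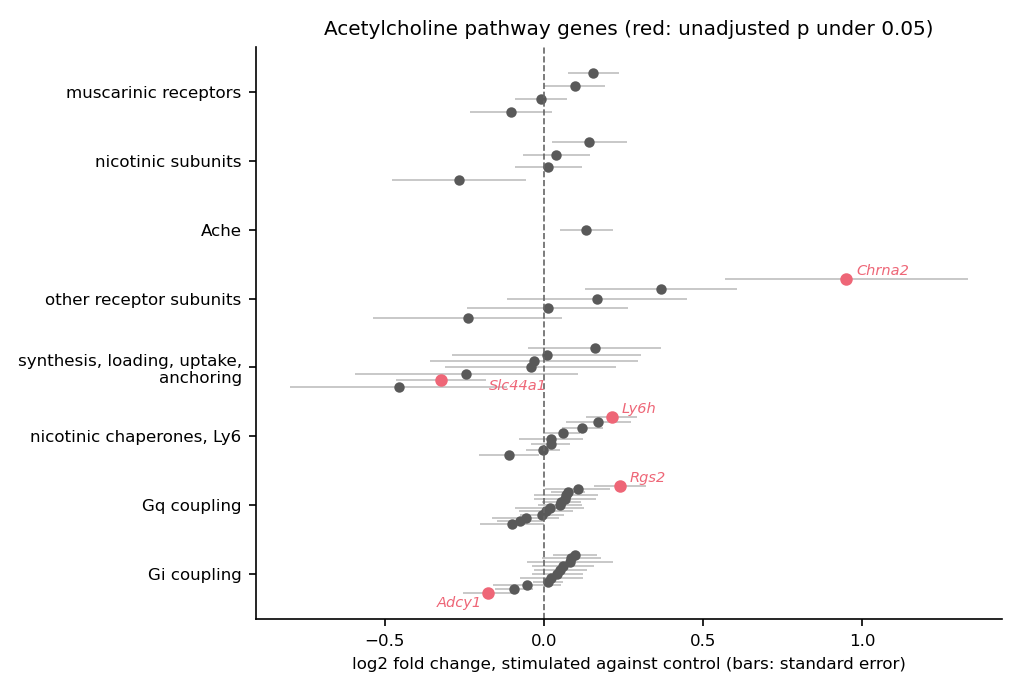
Log2 fold change, stimulated against control, of the 9 genes and of the tested genes of 5 acetylcholine pathway lists, 1 point a gene with its standard error, from the fit with the run. Red points are the 5 genes with an unadjusted p under 0.05 (Chrna2, Slc44a1, Ly6h, Rgs2 and Adcy1), and none of these is among the 9.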

How the data were processed

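RNA-seq libraries (SMART-Seq v4, not stranded) from bulk ACC of 22 mice were analysed. Per the study's methods, the authors used cutadapt 1.10 for trimming, STAR 2.5.3a for alignment to mm10 and HTSeq 0.6.1p1 with the Ensembl annotation to count uniquely aligned reads. The counts were deposited raw, per gene and mouse. The authors also deposited a signal column per mouse, the counts divided by size factors, and columns of their own comparison by DESeq2 1.22.1 (fold changes and p-values), and neither kind was used. No further per-sample columns (0) were present. The strand setting of the counting is not given in the sources used here.

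Groups, replicate numbers and library numbers came from the labels. The series' design text gives 23 samples, of which 22 are analysed here, and no library has number 7. RNA integrity and batch, covariates of the authors' comparison, are not in the labels and were not used here. The 22 libraries are separate mice.

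The quasi-likelihood test of edgeR 4.0.16 (R 4.3.3, TMM, glmQLFit and glmQLFTest) had terms for run and group. It was run on the 17524 genes that reached 10 counts in 10 or more mice, with Benjamini-Hochberg adjustment over all of them. SE is the log2 fold change over the square root of F. The SD is over mice. CPM used TMM library sizes, and log2 CPM a prior count of 2. Alternatives used DESeq2 1.42.0, limma 3.58.1 voom and sva 3.50.0. Gene models were from GENCODE M21 (GRCm38), in which 37772 of 37786 identifiers were found. Named genes were the 9 genes, genes of the pathway lists including all with an unadjusted p under 0.05, and the 3 best correlates of each of the 9 whose symbol does not start with Gm or end in Rik. A marker gene each of the excitatory neuron and oligodendrocyte lists is not reported here and was left out of them. The genes and lists were chosen with earlier results of these data known.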

Additional observations from a re-analysis of the deposited data

How the results depend on the processing

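None of the 9 genes had an adjusted p under 0.05 in any of the 12 alternatives, and over these the lowest adjusted p was 0.081 for Chrm1 and 0.132 for Ache. At an unadjusted p under 0.05, limma voom gave 1 of 9 (Chrm1, p = 0.026), beside 2860 of the 17524 genes. The replicate block gave 1 of 9 (Ache, p = 0.045), beside 1980 genes. With 1 surrogate variable beside the run there were 2 of 9 (Chrm1, p = 0.0014, and Ache, p = 0.010), beside 3503 genes. The other 9 alternatives gave 0. Over all genes, the adjusted count of 0 became 33 by DESeq2, 1 by voom, 66 with the surrogate variable and 1 without controls 9 and 11. The unadjusted count of 2015 became 632 without the run, 3687 with no count minimum, 3503 with the surrogate variable and 974 in numbers 1 to 11, while numbers 12 to 23 gave 2165. Signs turned for Chrm2 (0.13 in numbers 1 to 11), for Chrm3 (0.10 without the run, 0.0002 by voom, 0.0039 with the surrogate variable, 0.0616 in numbers 12 to 23), for Chrm4 (-0.0024 with the replicate block), for Chrna7 (-0.0385 with the mitochondrial share, -0.0136 in numbers 1 to 11, -0.016 without controls 9 and 11) and for Chrnb2 (-0.0899, -0.0802 and -0.027 under the same 3 settings). Signs of Chrm1, Chrna4, Chrna5 and Ache were kept in all 12. The cause was not tested. The replicate block, over replicates 1 to 10 of each group with the run, gave 0 genes at an adjusted p under 0.05 and 1980 at an unadjusted p under 0.05. Same-numbered mice correlated at 0.26 on average when centred within groups (8 of 10 pairs over 0.1) and at -0.05 when centred within group and run (1 of 10 over 0.1), and 1 and 0 of 10 stimulated mice correlated best with the control of their own number, so the numbers were not taken as pairs. Among the 9 genes depth limits Chrna5 most, and it is lower still for Chat, Slc18a3, Slc5a7 and the other receptor subunits. A p that misses the threshold leaves differences inside the intervals given.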
